A study of Homo sapiens with 48 samples.

Results

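The genes described here are 34 members of the ATF4 amino acid stress response, followed through 48 RNA-seq libraries of U2932, a human line of diffuse large B-cell lymphoma. The members were chosen by gene name, as known genes of the response, with earlier results of these data known. They comprise ATF4 itself, other transcription factors of the response, its feedback and stress effectors, enzymes of serine, one-carbon and other amino acid metabolism, amino acid transporters, and genes of tRNA charging and export. Of the 34, all had a row among the 60558 of the coculture and the 34843 of the NOTCH2 variant tumours. Among the 14009 rows of the knockout tumours 32 had one, the exceptions being NUPR1 and STC2. In each of the 3 experiments 32 members passed the filter, a normalised count of at least 10 in at least 3 libraries. NUPR1, a stress-induced chromatin protein, never exceeded 1.96 normalised counts, and STC2, a secreted glycoprotein, never exceeded 2.10, where they had a row.

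The 48 libraries fall into 3 experiments and 16 groups of 3. In the coculture, U2932 cells with KLHL6 knocked out (KLHL6-KO) and KLHL6 wild-type cells (WT) were each sampled at 0, 3, 8 and 12 h with OP9 stroma, a mouse bone marrow line, made to express the NOTCH ligand DLL1. KLHL6 is a substrate adaptor of a ubiquitin ligase that is mutated in B-cell lymphomas, and NOTCH2 is a receptor of that ligand. In the second experiment U2932 tumours of the genotypes KLHL6-/-NOTCH2-/- (DKO), KLHL6+/+NOTCH2-/- (N2-KO), KLHL6-/-NOTCH2+/+ (K6-KO) and KLHL6+/+NOTCH2+/+ (WT) were compared. In the third, U2932 tumours stably expressed NOTCH2(Q2140*), NOTCH2(R2400*), NOTCH2(S2156A) or NOTCH2(WT), where an asterisk marks a stop codon. All tumours of both experiments grew in NSG mice, which lack B, T and NK cells but keep myeloid cells, all received the chemotherapy CHOP (cyclophosphamide, doxorubicin, vincristine and prednisone), and all were collected at 1 cm3, so no untreated tumour was compared. The labels do not say whether a knockout line is 1 clone, nor which promoter drives the NOTCH2 constructs.

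ATF4 is a transcription factor whose mRNA is translated preferentially when the initiation factor eIF2 is phosphorylated, which the kinase GCN2 does when amino acids run short and PERK does when the endoplasmic reticulum is stressed. It binds composite C/EBP-ATF elements and switches on genes that make, import and charge amino acids, together with feedback genes that restrain the response. In lymphocytes and lymphomas many of the same genes also serve rapid growth. Because ATF4 is controlled largely in translation, the level of its mRNA is not a measure of ATF4 protein, and protein was not measured in these libraries.

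The short core letters of such an element, TGATGNAA on either strand, were looked for from 250 bases before to 50 bases after the start sites in the RefSeq table of GRCh38.p14. They were found in 10 of the 43 member promoters (23.3%), against 1270 of the 35116 promoters in that table (3.62%). By gene, 10 of the 28 members with an entry held a match (35.7%), against 1217 of 27305 symbols (4.46%). NUPR1, SLC7A11, GPT2, ALDH1L2, SHMT2 and PSPH had no entry. A match describes these letters only, and no match says no more than that they are not in this window. The following stretches are shown because they carry the letters in genes that moved with time in coculture. Each runs 5′ to 3′ on the strand of its gene, with the match in capitals, and TTNCATCA is the same motif read from the other strand. ATF3, CEBPG, CHAC1 and ASNS come first, the transporters SLC3A2, SLC7A1, SLC1A5 and SLC1A4 follow, and the tRNA synthetase genes AARS1 and GARS1 come last.
ATF3: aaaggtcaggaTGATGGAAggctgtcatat
CEBPG: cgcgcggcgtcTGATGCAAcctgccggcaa
CHAC1: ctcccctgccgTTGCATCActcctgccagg
ASNS: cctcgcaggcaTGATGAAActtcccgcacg
SLC3A2: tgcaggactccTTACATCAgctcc
SLC7A1: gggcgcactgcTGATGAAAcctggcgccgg
SLC1A5: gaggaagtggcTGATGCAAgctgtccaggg
SLC1A4: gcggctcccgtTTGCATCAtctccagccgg
AARS1: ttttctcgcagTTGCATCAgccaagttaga
GARS1: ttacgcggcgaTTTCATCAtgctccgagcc

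The stretch of CHAC1 is chr15:40953251-40953280 on the plus strand, that of ATF3 is chr1:212565205-212565234 on the plus strand, and that of ASNS is chr7:97872458-97872487 on the minus strand. The match of SLC7A1 begins 7 bases past its start site, and that of SLC1A5 begins 97 bases before it. Among the other lists, 5 of 16 promoters of further cytosolic tRNA synthetase genes (31.2%) and 5 of 24 promoters of other ATF4-linked genes (20.8%) held a match. For the endoplasmic reticulum (ER) chaperone list it was 1 of 19 (5.26%), and for NRF2 targets 0 of 9.

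The files and labels were checked on genes outside the response. Recovered library totals ran from 11.1 to 17.4 M reads in the coculture, from 3.70 to 15.1 M in the knockout tumours, where labelled DKO replicate 3 was the shallowest, and from 12.7 to 17.1 M in the variant tumours. Markers of B cells were present throughout, with MS4A1 (CD20) between 6730 and 21984 normalised counts. In the coculture KLHL6 RNA was lower in every KLHL6-KO library (1915 to 3060.4) than in every WT library (4135 to 6123). In the tumours KLHL6 RNA did not follow the labels: it was 3554, 5266 and 4902 in labelled DKO, 6289, 6276 and 7045 in labelled K6-KO, 7996, 6397 and 7905 in labelled N2-KO and 3478, 4781 and 4856 in WT tumours. NOTCH2 RNA was 612, 562 and 530.5 in labelled DKO, 447, 492 and 458 in labelled K6-KO, 329, 448 and 292 in labelled N2-KO and 420.2, 850.3 and 909 in WT tumours, and here too the ranges of the labelled knockouts and WT overlapped. These tumours are therefore named by their labels. WT tumour replicate 1 stood apart, with a mean correlation of 0.983 to its own group against 0.989 for each of the other two WT tumours. The 10 stromal markers summed to 15.7 to 21.1 in KLHL6-KO and 39.1 to 50.5 in WT libraries at 0 h, and to between 138 and 557 in libraries of either genotype from 3 to 12 h. VIM in that list was at most 2.86 at 0 h and at least 71.3 afterwards. The sum was highest in WT 12 h replicate 1. Feeder RNA and induction in the lymphoma cells cannot be told apart in these sums, and their part in any change with time was not tested. The 6 macrophage markers summed to at most 16.1 in coculture, with CD163 at 0 in every library.

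Levels between genes can be compared only per length. At 0 h in WT cells the highest members, as CPM per kilobase of exon, were SLC1A5 (201 ± 9.0), ATF4 (196 ± 11), SLC7A5 (152 ± 5.98), AARS1 (111 ± 3.57) and GARS1 (107 ± 1.84; SD, n = 3 each). The lowest members that passed the filter were ATF3 (2.02 ± 0.226), ASNS (1.67 ± 0.234) and VLDLR (0.301 ± 0.0565) on the same scale. SLC1A5 and ATF4 did not differ beyond their spread, nor did AARS1 and GARS1. ATF4, PSAT1, PSPH, MTHFD2, ASNS, SLC7A5, AARS1, GARS1 and XPOT have pseudogenes that could take or give reads. DDIT3, CEBPB, DDIT4, VLDLR, SHMT2, MTHFD2, ALDH1L2, SLC7A11, SLC7A5, SLC1A5 and GARS1 overlap exons of a gene on the opposite strand, and DDIT3 and ASNS one on the same strand. Whether the counting used strand is not given in the sources used here, so their levels are uncertain to that extent.

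In coculture the response fell in both genotypes, and at 8 h CHAC1, ALDH1L2, CTH and ATF3 were among the members that had fallen furthest in each. So was VLDLR, a scarce member whose 0 h libraries alone were enough to pass the filter. Changes with time were tested with limma on log2(normalised count + 2), with Benjamini-Hochberg adjustment over all genes and adjusted p under 0.05 as the threshold for a call. A positive log2 change means higher in the first group or time named. The 0 h libraries are shared by all changes from 0 h within a genotype. No group was kept for the same times without stroma or on stroma without DLL1. The parts of DLL1, stroma and time in culture therefore cannot be told apart. In bulk RNA, fewer cells expressing a gene and less RNA per cell cannot be told apart.

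In KLHL6-KO cells 27 of the 32 members that passed the filter were called at 3 h against 0 h, 3 higher and 24 lower, where 39.1% of all 15032 genes tested were called. At 8 h 29 were called, 0 higher and 29 lower (37.8% of all genes), and at 12 h 29, 1 higher and 28 lower (40.5%). In WT cells 32 were called at 3 h, 6 higher and 26 lower (54.8% of all genes). At 8 h in WT cells 30 were called, 1 higher and 29 lower (56.2%), and at 12 h 29, 2 higher and 27 lower (53%). Over all genes the calls were split about evenly: at 8 h 19.2% were higher and 18.6% lower in KLHL6-KO cells, and 28% were higher and 28.2% lower in WT cells. Members at least 2-fold lower at 8 h numbered 13 in KLHL6-KO cells, against 2.41% of all genes, and 16 in WT cells, against 7.2% of all genes. VLDLR is in these counts. The median log2 change of the members tested was -0.84 in KLHL6-KO cells and -1.0 in WT cells, and that of all genes was within 0.01 of 0. Of the 8 h calls, 28 of 29 in KLHL6-KO cells and 29 of 30 in WT cells held in each of the 13 alternative settings.

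**Figure D1:**
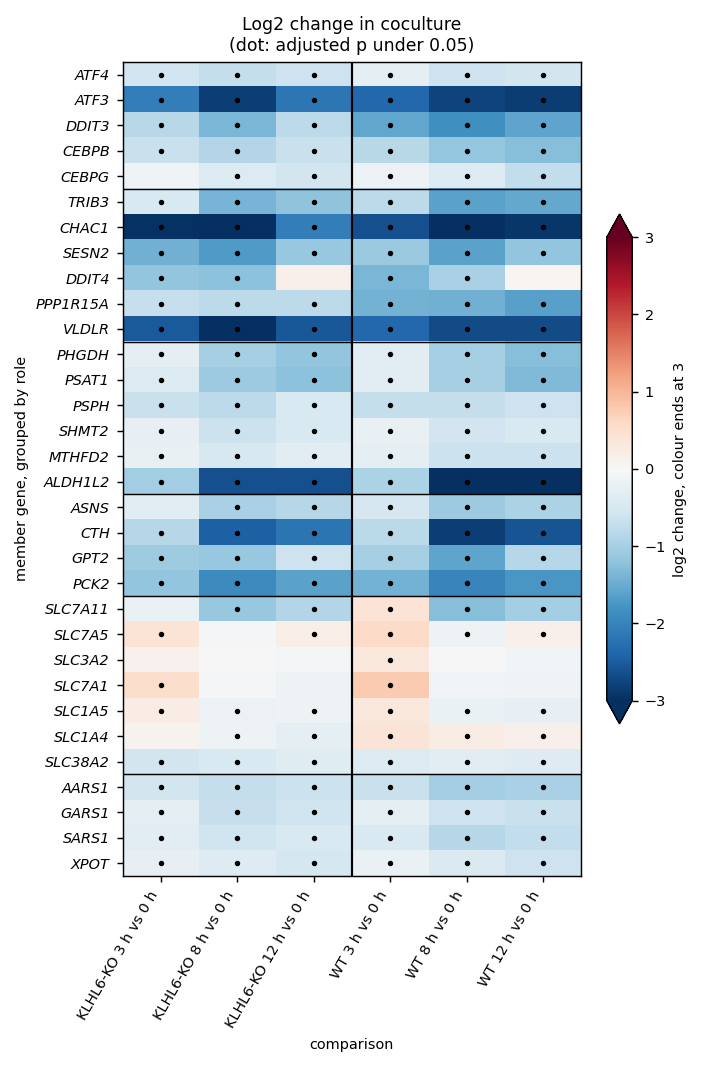
Log2 change from 0 h of the 32 members tested, in rows grouped by role, for 3, 8 and 12 h in KLHL6-KO (left) and WT cells (right); a dot marks adjusted p under 0.05. Blue covers most of the map, and the red cells at 3 h are transporters.

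Among the transcription factors, ATF4 mRNA fell by a modest amount. It was 6422, 6069 and 6450.5 normalised counts at 0 h, 4256, 4131 and 4408 at 3 h, 3774, 3897 and 3794 at 8 h and 3882, 4272 and 4212 at 12 h in KLHL6-KO cells. WT libraries had 5634, 5532 and 6220.2 at 0 h, 4936, 4785 and 4671 at 3 h, 3739.9, 3798 and 3686 at 8 h and 3679, 4013 and 4110.5 at 12 h. Every library from 3 h onward was below every 0 h library of its genotype, and the 8 h values had the least spread. The 8 h change was -0.72 ± 0.06, adjusted p = 1.1e-12 in KLHL6-KO cells and -0.63 ± 0.06, adjusted p = 1e-11 in WT cells.

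DDIT3, which encodes the stress factor also called CHOP (unrelated to the chemotherapy of that name), was 156, 173 and 154 at 0 h, 82, 92.4 and 93.5 at 3 h, 64.3, 59 and 60 at 8 h and 101, 90.9 and 86.5 at 12 h in KLHL6-KO cells. In WT cells it was 214, 296 and 240.3 at 0 h, 91.3, 88.1 and 70.4 at 3 h, 57.4, 77.9 and 71.3 at 8 h and 82.7, 75.2 and 87.6 at 12 h. At every later time all libraries lay below the 0 h libraries of their genotype, which were highest in WT. The 8 h change was -1.36 ± 0.13, adjusted p = 3.4e-10 in KLHL6-KO cells and -1.83 ± 0.13, adjusted p = 1.2e-13 in WT cells. ATF3, a stress-induced partner of ATF4-type factors, fell further. It was 77, 71.6 and 62.6 at 0 h and 9.06, 6.77 and 9.15 at 8 h in KLHL6-KO cells, and 94.8, 106 and 85.8 at 0 h and 12.4, 12.8 and 11.3 at 8 h in WT cells, without overlap (8 h log2 change -2.81 ± 0.24, adjusted p = 1.9e-11 in KLHL6-KO and -2.78 ± 0.24, adjusted p = 7.9e-12 in WT cells). CEBPB and CEBPG, C/EBP factors that pair with ATF4, fell less: their 8 h log2 changes were -0.88 and -0.42 in KLHL6-KO cells, and -1.17 and -0.42 in WT cells, all called.

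Among the feedback and stress effectors CHAC1 and VLDLR fell most at 8 h. CHAC1, an enzyme that degrades glutathione, was 183, 161 and 208 at 0 h, 32.8, 16.5 and 19.3 at 3 h, 6.34, 10.6 and 13.2 at 8 h and 50.2, 41.8 and 35 at 12 h in KLHL6-KO cells. In WT cells it was 164, 173 and 220.2 at 0 h, 29.8, 36.3 and 20.1 at 3 h, 2.25, 12.8 and 19.2 at 8 h and 16.1, 18.8 and 37.9 at 12 h. All 0 h libraries were several times above all later ones, and the 8 h libraries were the lowest of their genotype except that WT 8 h replicate 3 lay within the 12 h range. The 8 h change was -3.98 ± 0.44, adjusted p = 6.8e-07 in KLHL6-KO cells (-4.20 to -3.42 over the alternatives) and -4.08 ± 0.44, adjusted p = 1.9e-07 in WT cells (-4.55 to -3.39), the size depending on the pseudocount because the 8 h counts were low.

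TRIB3, a pseudokinase that binds ATF4 and dampens it, was 1019, 808 and 955 at 0 h, 623, 676 and 716 at 3 h, 346, 359 and 344 at 8 h and 400.3, 401 and 396 at 12 h in KLHL6-KO cells. The WT values were 1076, 1096 and 1148 at 0 h, 570.2, 688 and 656 at 3 h, 393, 334 and 354 at 8 h and 368, 393 and 378 at 12 h. The values stepped down at 3 h and again at 8 h, each time without overlap within a genotype, and stayed low at 12 h. The 8 h change was -1.40 ± 0.08, adjusted p = 8.3e-16 in KLHL6-KO cells and -1.62 ± 0.08, adjusted p = 6.8e-18 in WT cells. SESN2, a leucine sensor that restrains mTORC1, fell by a similar amount at 8 h (log2 change -1.71 in KLHL6-KO and -1.60 in WT cells). PPP1R15A, the GADD34 subunit that directs a phosphatase to eIF2, had 8 h log2 changes of -0.79 in KLHL6-KO and -1.44 in WT cells.

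VLDLR, a lipoprotein receptor gene induced by ATF4, was low even at 0 h, at 20.2, 21.6 and 19.6 in KLHL6-KO and 39.8, 28.8 and 30.5 in WT cells. At 8 h it was 0, 0 and 1.02 in KLHL6-KO and 2.25, 2.33 and 6.79 in WT cells, near the limit of detection in both. VLDLR changed at 8 h by -3.29 ± 0.43, adjusted p = 1.6e-07 in KLHL6-KO cells (-5.54 to -1.77 over the alternatives) and -2.67 ± 0.43, adjusted p = 2.5e-06 in WT cells (-3.11 to -1.81), so its rank against CHAC1 depended on the setting. DDIT4 (REDD1), another inhibitor of mTORC1, fell and came back: it was 368, 471 and 499 at 0 h, 182, 198 and 199.9 at 3 h, 188, 222 and 161 at 8 h and 529, 516 and 425 at 12 h in KLHL6-KO cells. In WT cells DDIT4 was 574, 760 and 668 at 0 h, 206, 205 and 392 at 3 h, 268, 292 and 494 at 8 h and 628, 612 and 866 at 12 h. Its 12 h libraries overlapped those of 0 h in both genotypes, where the call was lost (adjusted p = 0.69 in KLHL6-KO and 0.85 in WT cells).

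**Figure D2:**
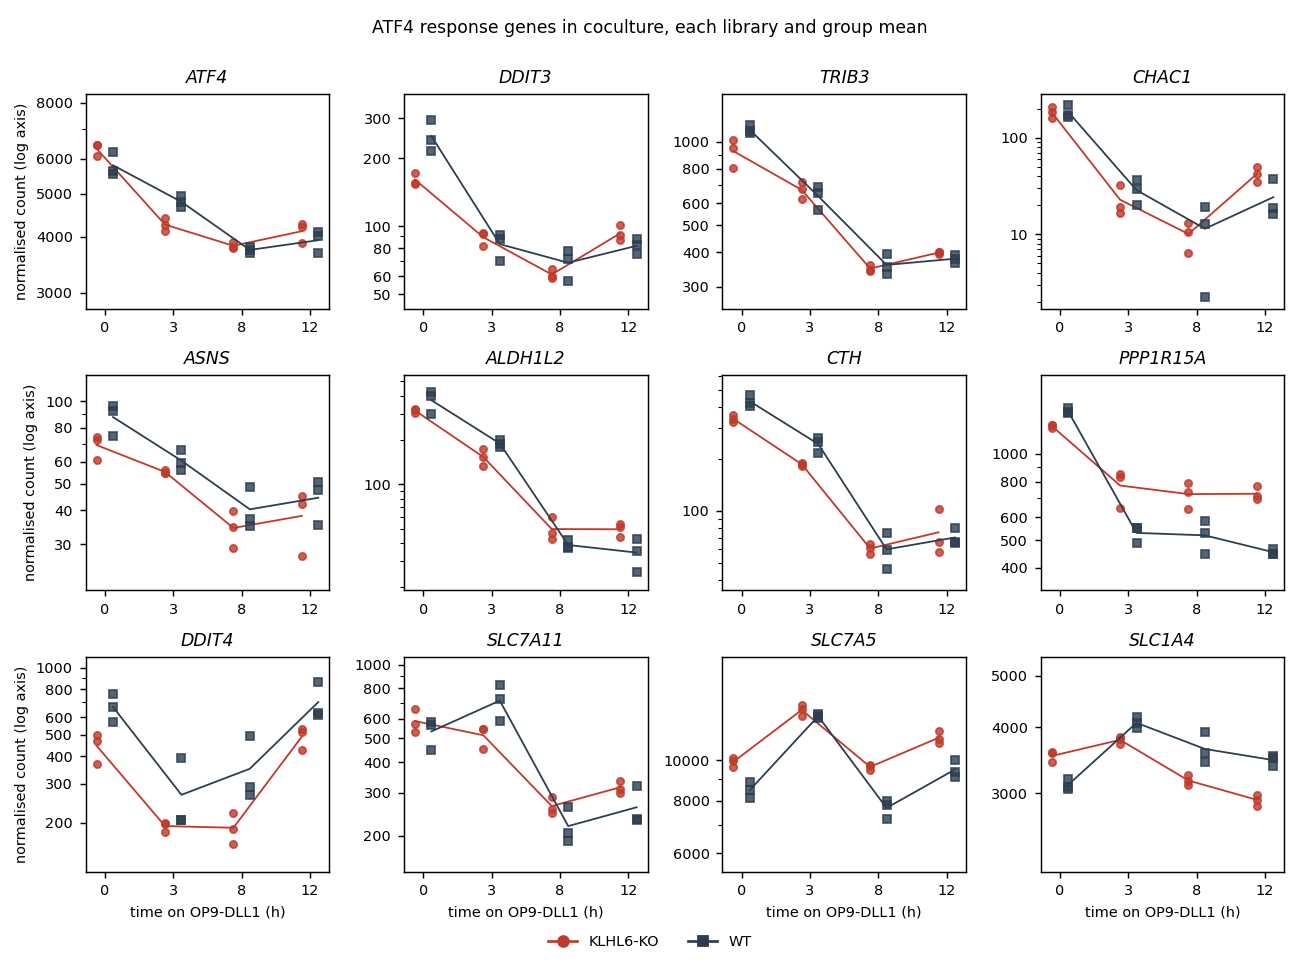
Normalised count (log axis) of 12 members at 0, 3, 8 and 12 h with OP9-DLL1 stroma, each point 1 library and each line the mean of 3 (KLHL6-KO circles, WT squares). CHAC1, ALDH1L2 and CTH fall steeply, DDIT4 returns at 12 h, and SLC7A5 peaks at 3 h. SLC1A4 is also highest at 3 h, by a rise from 0 h that was called in WT cells only.

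All 6 members of serine and mitochondrial one-carbon synthesis were lower at 3, 8 and 12 h in both genotypes. The largest change was in ALDH1L2, the mitochondrial enzyme that burns formyl-tetrahydrofolate and makes NADPH. It was 327, 321 and 304 at 0 h, 173, 155 and 133 at 3 h, 59.8, 42.5 and 46.8 at 8 h and 43.9, 51.2 and 53.6 at 12 h in KLHL6-KO cells, and 396, 424 and 298 at 0 h, 179, 201 and 189 at 3 h, 41.7, 37.2 and 37.4 at 8 h and 35.5, 25.4 and 42.3 at 12 h in WT cells. The 8 h and 12 h libraries overlapped each other and lay far under those of 3 h. The 8 h change was -2.64 ± 0.15, adjusted p = 1.1e-15 in KLHL6-KO cells and -3.19 ± 0.15, adjusted p = 3e-18 in WT cells. PHGDH, PSAT1 and PSPH, which make serine from a glycolytic intermediate, had 8 h log2 changes of -0.99, -1.10 and -0.78 in KLHL6-KO cells, and -0.99, -1.01 and -0.72 in WT cells. SHMT2 and MTHFD2, which pass the serine carbon to mitochondrial folate, fell the least at 8 h, by log2 changes of -0.63 and -0.49 in KLHL6-KO and -0.58 and -0.66 in WT cells.

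Of the other amino acid enzymes, CTH, which makes cysteine from cystathionine, fell most. It was 356, 339 and 327 at 0 h, 190.1, 182 and 187 at 3 h, 56.2, 64.8 and 61 at 8 h and 102, 65.8 and 57.7 at 12 h in KLHL6-KO cells, and 422, 469 and 402 at 0 h, 252, 266 and 215 at 3 h, 74.3, 59.3 and 46.4 at 8 h and 79.5, 65.3 and 66.1 at 12 h in WT cells. The times 0, 3 and 8 h did not overlap within a genotype, and 12 h overlapped 8 h. The 8 h change was -2.45 ± 0.15, adjusted p = 2.2e-14 in KLHL6-KO cells and -2.83 ± 0.15, adjusted p = 2.6e-16 in WT cells. PCK2, the mitochondrial form of PEP carboxykinase, was 546, 508 and 558 at 0 h and 162, 119.9 and 148 at 8 h in KLHL6-KO cells, and 519.6, 498 and 577 at 0 h and 114, 149 and 140.4 at 8 h in WT cells, well apart in both (8 h log2 change -1.90 in KLHL6-KO and -1.98 in WT cells). GPT2, mitochondrial alanine aminotransferase, changed by -1.13 in KLHL6-KO and -1.58 in WT cells on the same scale. ASNS, asparagine synthetase and the classical target of the response, was scarce: it was 74.2, 60.8 and 72.4 at 0 h, 54.6, 54.9 and 55.9 at 3 h, 29, 39.6 and 34.6 at 8 h and 44.9, 27.2 and 42.2 at 12 h in KLHL6-KO cells. In WT cells ASNS was 95.8, 92.4 and 74.4 at 0 h, 59.6, 56 and 66.4 at 3 h, 34.9, 37.2 and 48.7 at 8 h and 47.3, 35.4 and 50.5 at 12 h. The 8 h libraries lay below all of 0 h, with a log2 change of -0.97 ± 0.18, adjusted p = 5e-05 in KLHL6-KO and -1.09 ± 0.18, adjusted p = 4e-06 in WT cells.

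The amino acid transporters took another course. At 3 h 3 of 7 were higher and 1 lower in KLHL6-KO cells, and 6 were higher and 1 lower in WT cells, where 19.5% and 27.2% of all genes were called higher. SLC7A5 (LAT1), which imports large neutral amino acids, was 10103, 9642 and 9966 at 0 h, 12731, 13557 and 13199.8 at 3 h, 9463, 9684 and 9759.6 at 8 h and 11226, 11707 and 10966 at 12 h in KLHL6-KO cells. In WT cells it was 8477, 8108 and 8862 at 0 h, 12731, 12586 and 12839.8 at 3 h, 8010.2, 7237 and 7841 at 8 h and 9106, 9999 and 9385 at 12 h. The 3 h libraries stood above all others of their genotype. The 3 h change was 0.41 ± 0.05, adjusted p = 6.3e-08 in KLHL6-KO cells and 0.58 ± 0.05, adjusted p = 9e-12 in WT cells. SLC7A1, the arginine and lysine carrier, was 1779.8, 1571 and 1455 at 0 h and 2396, 2351 and 2194 at 3 h in KLHL6-KO cells, and 1596, 1549 and 1397 at 0 h and 2569, 2698 and 2588 at 3 h in WT cells, again with 3 h above 0 h in every library. Its 3 h change was 0.53 ± 0.07, adjusted p = 3.1e-07 in KLHL6-KO cells and 0.79 ± 0.07, adjusted p = 2.7e-11 in WT cells.

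SLC1A5, the glutamine carrier ASCT2, also rose at 3 h in both genotypes (log2 change 0.23 in KLHL6-KO and 0.33 in WT cells). SLC1A4, which carries serine and alanine, and SLC3A2, the shared heavy chain of SLC7A5 and SLC7A11, were called higher at 3 h in WT cells (0.39 and 0.32) and missed the threshold in KLHL6-KO cells (0.10 with adjusted p = 0.11, and 0.14 with adjusted p = 0.054). SLC7A11, the cystine importer that feeds glutathione synthesis, was 657, 575 and 532 at 0 h, 548, 543 and 453 at 3 h, 287, 258 and 248 at 8 h and 336, 300 and 311 at 12 h in KLHL6-KO cells. In WT cells it was 583, 568 and 449 at 0 h, 723, 828 and 586 at 3 h, 261, 191 and 206 at 8 h and 319, 234 and 232 at 12 h. Its libraries at 8 h lay well below those of 0 h in both genotypes, while at 3 h the KLHL6-KO libraries overlapped 0 h and the WT libraries lay above it. The WT rise at 3 h (0.41 ± 0.14, adjusted p = 0.016) was no longer called without WT 0 h replicate 3 or WT 3 h replicate 2 (adjusted p = 0.095 to 0.1). SLC38A2, the sodium-coupled carrier that amino acid shortage induces, fell at 3 h in KLHL6-KO (-0.56) and WT cells (-0.41). At 8 h against 3 h all transporters but SLC38A2, 6 of 7, were called lower in both genotypes, where 13.4% of all genes were called lower in KLHL6-KO and 18.8% in WT cells. However, in KLHL6-KO cells that call for SLC3A2 did not hold without KLHL6-KO 3 h replicate 1, 2 or 3 or KLHL6-KO 8 h replicate 1 or 3 (adjusted p = 0.067 to 0.27), and in WT cells that for SLC1A4 without WT 3 h replicate 2 or WT 8 h replicate 2 (adjusted p = 0.052 to 0.079). The KLHL6-KO call for SLC3A2 was also lost with no filter.

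All 4 members of tRNA charging and export were lower at 3, 8 and 12 h in both genotypes. AARS1, alanyl-tRNA synthetase, was 4797, 4559.6 and 4861 at 0 h and 2822, 2872 and 2993 at 8 h in KLHL6-KO cells, and 5908, 5979.6 and 5705 at 0 h and 2923, 2751 and 2993 at 8 h in WT cells, with 8 h below 0 h throughout. Its 8 h change was -0.71 ± 0.05, adjusted p = 3.2e-13 in KLHL6-KO cells and -1.02 ± 0.05, adjusted p = 1.3e-17 in WT cells. GARS1 and SARS1, the glycyl and seryl enzymes, and XPOT, which exports tRNA from the nucleus, had 8 h log2 changes of -0.68, -0.60 and -0.39 in KLHL6-KO cells, and -0.63, -0.85 and -0.44 in WT cells.

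Between 8 and 12 h some members rose, above the share of all genes only in KLHL6-KO cells. There 9 of 32 were called, 8 higher and 1 lower, where 11.9% of all genes were called and 5.87% were higher. In WT cells 7 were called, 4 higher and 3 lower, near the shares of all genes (25.1% called and 13% higher). GPT2, SESN2, SLC7A5 and DDIT4 rose in both genotypes, DDIT4 by 1.36 ± 0.25, adjusted p = 0.0017 in KLHL6-KO cells and 1.03 ± 0.25, adjusted p = 0.0062 in WT cells. The WT call for DDIT4 was lost with only the libraries of the 2 groups in the fit (limma, adjusted p = 0.099). CHAC1, DDIT3, PSPH and SHMT2 were called higher in KLHL6-KO cells, CHAC1 by 1.91 ± 0.44, adjusted p = 0.0072. The same change of CHAC1 in WT cells was 1.16 ± 0.44, adjusted p = 0.059, where the 8 h and 12 h libraries overlapped. PHGDH fell further in both genotypes (-0.19 in KLHL6-KO and -0.28 in WT cells), but the KLHL6-KO call did not hold without KLHL6-KO 8 h replicate 2 or 3 or KLHL6-KO 12 h replicate 1 or 2 (adjusted p = 0.1 to 0.14), and that for SHMT2 without KLHL6-KO 8 h replicate 1 or 2 (adjusted p = 0.052 to 0.055). The KLHL6-KO call for PHGDH was also lost with no filter. The share of counts from mitochondrially encoded genes was 8.2 to 8.77% at 0 h, 7.16 to 8.23% at 3 h, 9.80 to 11.4% at 8 h and 10.8 to 15.5% at 12 h in KLHL6-KO cells, and 8.03 to 8.83%, 7.56 to 8.82%, 7.31 to 11.1% and 8.89 to 20.4% at the same times in WT cells. Its part in the changes with time was not tested. WT 12 h replicate 1 had the highest share, and without it 8 WT members were called between 8 and 12 h (16.4% of all genes).

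At each single time a minority of members differed between the genotypes. At 0 h 7 of 32 were called between KLHL6-KO and WT cells, 2 higher and 5 lower, where 26.1% of all genes were called. At 3 h the count was 4 (7.82% of all genes), at 8 h 4 (4.34%) and at 12 h 4 (3.39%). Leaving out KLHL6-KO 0 h replicate 2 brought the 0 h count to 4. The 3 h count was 2 with any 1 of WT 3 h replicates 1, 2 and 3 or KLHL6-KO 3 h replicate 1 left out, and 1 with KLHL6-KO 3 h replicate 3 left out. It was 8 with only the libraries of the 2 groups in the fit. DDIT3 at 0 h was lower in every KLHL6-KO library, as given above (log2 change -0.62 ± 0.13, adjusted p = 0.00064). AARS1 was also lower in KLHL6-KO cells at 0 h (log2 change -0.31 ± 0.05, adjusted p = 3e-05), as were TRIB3, SARS1 and MTHFD2 by smaller amounts. The call for TRIB3 did not hold without KLHL6-KO 0 h replicate 2 (adjusted p = 0.16), that for SARS1 without WT 0 h replicate 3 or KLHL6-KO 0 h replicate 2 (adjusted p = 0.061 to 0.11), and that for MTHFD2 without WT 0 h replicate 1 or 2 or KLHL6-KO 0 h replicate 2 or 3 (adjusted p = 0.13 to 0.21). With all replicates kept, the SARS1 and MTHFD2 calls were also lost with no filter and with only the libraries of the 2 groups in the fit. That for MTHFD2 was lost with edgeR and with TMM scaling as well. SLC7A5 (log2 change 0.22 ± 0.05, adjusted p = 0.0013) and SLC1A4 (log2 change 0.18 ± 0.05, adjusted p = 0.0079) were higher in KLHL6-KO cells at 0 h.

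PPP1R15A separated the genotypes once the coculture had begun. It was 1257, 1261 and 1234 at 0 h, 647, 829 and 850 at 3 h, 735, 642 and 794 at 8 h and 694, 714 and 769 at 12 h in KLHL6-KO cells. In WT cells it was 1383, 1394 and 1445 at 0 h, 489, 551 and 550.1 at 3 h, 529, 582 and 447 at 8 h and 467, 446 and 448 at 12 h. KLHL6-KO libraries were above all WT libraries at 3, 8 and 12 h and below them at 0 h, where the difference was not called (adjusted p = 0.16). The difference was 0.54 ± 0.09, adjusted p = 9.5e-05 at 3 h, 0.48 ± 0.09, adjusted p = 0.00068 at 8 h and 0.67 ± 0.09, adjusted p = 5e-06 at 12 h, and each call held in all 13 alternatives. SLC1A4 was lower in KLHL6-KO cells at 12 h (2982, 2919 and 2844 in KLHL6-KO, against 3524, 3499.6 and 3372 in WT cells), while SLC7A5 was higher at 8 and 12 h. GPT2 was higher in KLHL6-KO cells at 8 h (459, 419 and 431 in KLHL6-KO, against 349, 310.3 and 366 in WT cells, without overlap), with a log2 change of 0.35 ± 0.07, adjusted p = 0.0023 that held in all 13 alternatives. The call for SLC1A4 at 8 h (-0.20) was not kept without WT 8 h replicate 1 or KLHL6-KO 8 h replicate 1 or 3 (adjusted p = 0.061 to 0.16). Nor was it kept with only the libraries of the 2 groups in the fit. At 3 and 12 h the other calls did not hold in every alternative. That for AARS1 at 3 h was lost without WT 3 h replicate 3 or KLHL6-KO 3 h replicate 1 or 3 (adjusted p = 0.056 to 0.065), that for SLC7A11 at 3 h without WT 3 h replicate 1 or 2 or KLHL6-KO 3 h replicate 1, 2 or 3 (adjusted p = 0.061 to 0.21), and that for ALDH1L2 at 12 h without WT 12 h replicate 1 or 2 or KLHL6-KO 12 h replicate 2 or 3 (adjusted p = 0.069 to 0.26). With all replicates kept, the SLC7A11 call was also lost with no filter and with only the libraries of the 2 groups in the fit. The ALDH1L2 call was lost in the same settings, with edgeR and with a pseudocount of 8. The call for ATF4 at 3 h (log2 change -0.17 ± 0.06, adjusted p = 0.049) was lost without any 1 of the 6 libraries compared (adjusted p = 0.059 to 0.19). It was also lost with edgeR and with TMM scaling.

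A test of whether the change with time differed between KLHL6-KO and WT cells, over 3, 8 and 12 h together, called 11 of 32 members, where 12.4% of all genes were called. The calls for PPP1R15A (adjusted p = 6.7e-05), SLC1A4 (0.00029), GPT2 (0.0016), AARS1 (0.0034) and ALDH1L2 (0.01) held in all 30 alternatives of that test. The call for DDIT3 (adjusted p = 0.0096) was lost without WT 0 h replicate 2 (adjusted p = 0.063), the highest of the WT 0 h libraries. ATF4, SARS1, MTHFD2, SLC7A11 and SLC7A5 were also called and each lost the call in at least 1 alternative. Without WT 0 h replicate 2 the test called 7 members.

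Other gene lists around the pathway, chosen like the members with earlier results of these data known, were described at 8 h. They are read against the shares of all genes given above, 19.2% higher and 18.6% lower in KLHL6-KO cells and 28% higher and 28.2% lower in WT cells. Of 14 other ATF4-linked genes tested, 1 was higher and 7 lower in KLHL6-KO cells, and 1 was higher and 9 lower in WT cells. PYCR1, the last enzyme of proline synthesis, changed by -1.15 ± 0.06, adjusted p = 1e-16 in KLHL6-KO cells and -1.14 ± 0.06, adjusted p = 4.2e-17 in WT cells. SLC6A9, a glycine transporter, changed by -2.04 ± 0.14, adjusted p = 1.1e-13 in KLHL6-KO cells and -1.32 ± 0.14, adjusted p = 9e-10 in WT cells. Of 17 further cytosolic tRNA synthetases, 5 were higher and 10 lower in KLHL6-KO cells, and 4 were higher and 9 lower in WT cells. CARS1, the cysteinyl enzyme, had the smallest p in both (log2 change -0.97 in KLHL6-KO and -1.09 in WT cells). Among 14 genes of the eIF2 kinases and the eIF2 cycle, 6 rose and 4 fell in KLHL6-KO cells, and 5 rose and 6 fell in WT cells, so the list had no single direction. EIF2AK4, which encodes GCN2, changed by -0.45 in KLHL6-KO and -0.86 in WT cells.

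The 16 ER chaperone and ERAD genes, which answer to the unfolded protein response, were described in the same way. At 8 h 0 were higher and 13 lower in KLHL6-KO cells (median -0.42), and 1 was higher and 7 lower in WT cells (median -0.11). From 8 to 12 h 10 rose in KLHL6-KO cells (5.87% of all genes) and 11 in WT cells (13%), and none fell. At 0 h 10 of them were higher in KLHL6-KO cells (13.7% of all genes) and 1 lower, each against WT cells, led by HSP90B1 (log2 change 0.53 ± 0.05, adjusted p = 9.4e-09). Of 10 NRF2 targets 3 were called lower at 8 h in each genotype, near the 28.2% of all genes called lower in WT cells and above the 18.6% in KLHL6-KO cells. Among them was the haem-degrading enzyme HMOX1 (log2 change -0.88 in KLHL6-KO and -1.21 in WT cells).

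In the knockout tumours the serine and one-carbon genes were higher than in WT tumours in the labelled DKO and N2-KO groups, while ATF4 mRNA was not called in any of them. Of 32 members 12 were called in labelled DKO tumours, 12 higher and 0 lower, where 9.35% of all genes were called. In labelled N2-KO tumours 17 were called, 13 higher and 4 lower (30.7% of all genes), and in labelled K6-KO tumours 5, 3 higher and 2 lower (17.5%). The 3 comparisons share the WT tumours. Without WT tumour replicate 1 the counts were 9 (11.4% of all genes) for labelled DKO, 13 (32.2%) for labelled N2-KO and 8 (19.8%) for labelled K6-KO tumours. The labelled DKO count was 7 without WT tumour replicate 2, 6 without labelled DKO replicate 2, 2 without labelled DKO replicate 3 (3.05% of all genes), and also 2 when the other genotypes were left out of the fit. Without labelled N2-KO replicate 1 or 3 the count for that group was 11. For labelled K6-KO it was 3 without its replicate 1 or 3 and 10 without its replicate 2.

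ATF4 was 8974, 8073 and 8642 normalised counts in labelled DKO, 7482, 7798 and 7991 in labelled N2-KO, 7696, 7025 and 6871 in labelled K6-KO and 13573, 7634 and 7021 in WT tumours. WT tumour replicate 1 was far above every other library, and the other two WT tumours lay within the range of the labelled knockouts. The log2 change was -0.07 ± 0.17, adjusted p = 0.83 for labelled DKO, -0.21 ± 0.17, adjusted p = 0.37 for labelled N2-KO and -0.32 ± 0.17, adjusted p = 0.2 for labelled K6-KO tumours. Without WT tumour replicate 1 it was 0.23 for labelled DKO and 0.08 for labelled N2-KO tumours, of the opposite sign. DDIT3 was 693, 348 and 544 in labelled DKO, 391, 469 and 388 in labelled N2-KO, 514, 473 and 462 in labelled K6-KO and 949, 590.2 and 576 in WT tumours. It was called lower in labelled N2-KO tumours (-0.72 ± 0.20, adjusted p = 0.014), a call that was lost without WT replicate 1 or N2-KO replicate 1 or 3 (adjusted p = 0.051 to 0.072). ATF3 was 393, 721 and 373 in labelled N2-KO and 1246, 839 and 790 in WT tumours, without overlap (-0.98 ± 0.28, adjusted p = 0.015), and this call was lost without WT replicate 1 or N2-KO replicate 1 or 3 (adjusted p = 0.068 to 0.19).

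**Figure D3:**
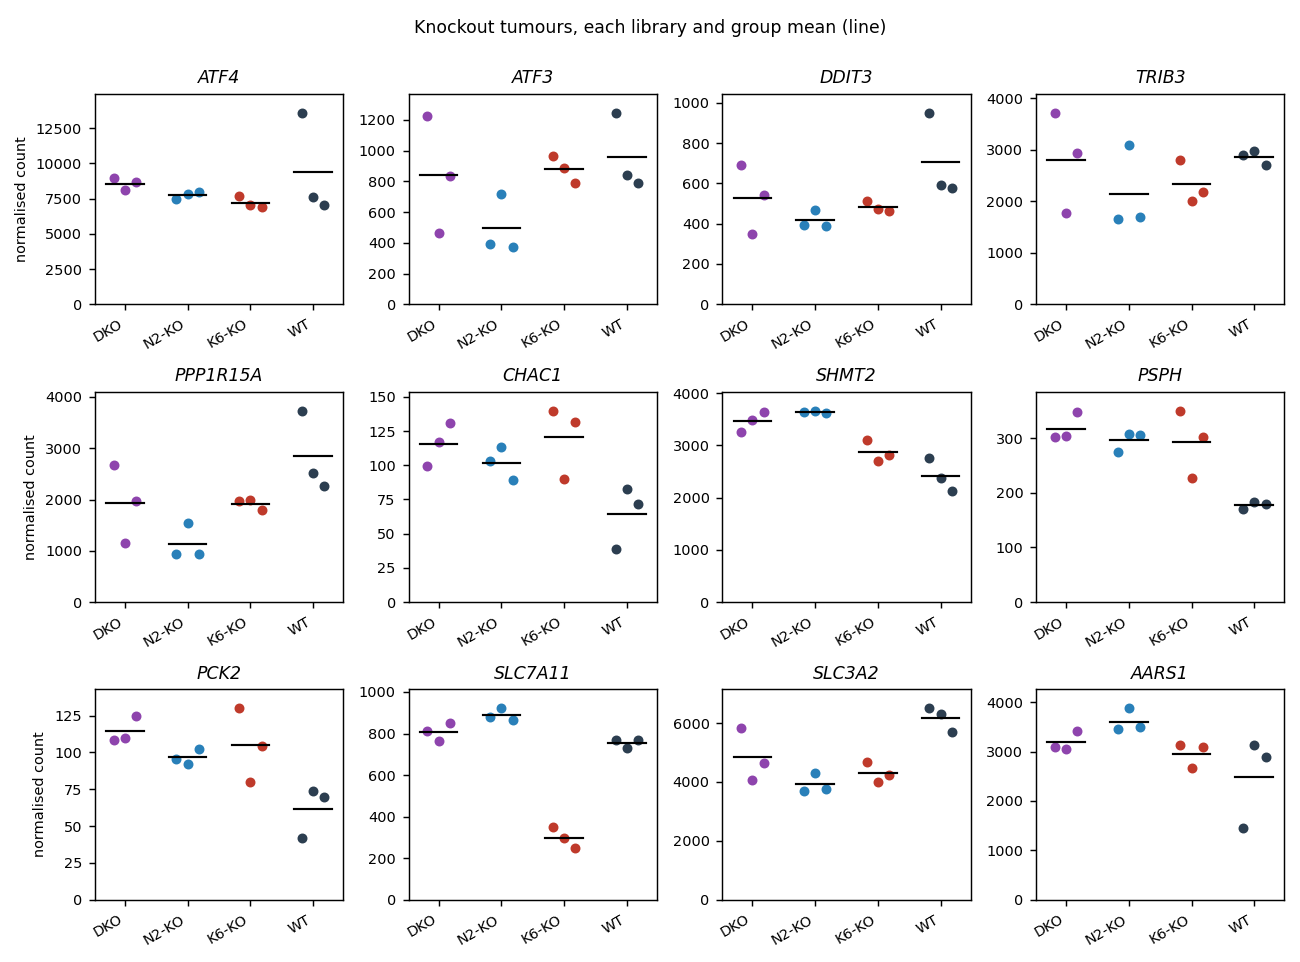
Normalised count of 12 members in the labelled DKO, N2-KO and K6-KO tumours and in WT tumours, each point 1 tumour and each line the group mean. WT tumour replicate 1 is the high point for ATF4 and DDIT3 and the low point for CHAC1, PCK2 and AARS1, and SLC7A11 is low in labelled K6-KO tumours.

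All 6 serine and one-carbon genes were called higher in labelled DKO and in labelled N2-KO tumours than in WT tumours, with median log2 changes of 0.51 and 0.57, and PSPH was the one called in labelled K6-KO tumours. Without WT replicate 1 SHMT2 was also called there (0.36, adjusted p = 0.0034). PSPH, the last enzyme of serine synthesis, was 302, 304 and 347 in labelled DKO, 275, 308 and 306 in labelled N2-KO, 350.3, 226 and 302 in labelled K6-KO and 171, 184 and 180.1 in WT tumours. No library of the labelled knockouts came down to the WT range. Its log2 change was 0.82 ± 0.14, adjusted p = 0.0024 for labelled DKO, 0.73 ± 0.14, adjusted p = 0.00095 for labelled N2-KO and 0.69 ± 0.14, adjusted p = 0.003 for labelled K6-KO tumours, and each call held in all 13 alternatives. SHMT2 was 3259, 3494 and 3645 in labelled DKO, 3633, 3664 and 3628 in labelled N2-KO, 3109, 2703 and 2824 in labelled K6-KO and 2757, 2383 and 2118 in WT tumours. It lay above the WT range in every labelled DKO and N2-KO tumour, and 1 labelled K6-KO tumour fell inside that range. PHGDH and MTHFD2 in labelled N2-KO tumours (0.54 ± 0.13, adjusted p = 0.0047, and 0.41 ± 0.10, adjusted p = 0.0046) also held in all 13 alternatives, as did 9 of the 17 labelled N2-KO calls. The labelled N2-KO call for PSAT1 was lost without WT replicate 2 or 3 or N2-KO replicate 1, 2 or 3 (adjusted p = 0.062 to 0.099) and that for ALDH1L2 without N2-KO replicate 2 (adjusted p = 0.069). Of the labelled DKO calls only that for PSPH held throughout.

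The feedback and stress effectors had no common direction. CHAC1 was 99.5, 117 and 131 in labelled DKO, 103, 113 and 89.6 in labelled N2-KO, 139.9, 90.3 and 132 in labelled K6-KO and 39, 82.5 and 71.5 in WT tumours. All labelled knockouts were above the WT range, of which replicate 1 was the lowest. The log2 change was 0.89 ± 0.23, adjusted p = 0.028 for labelled DKO, 0.71 ± 0.23, adjusted p = 0.031 for labelled N2-KO and 0.93 ± 0.23, adjusted p = 0.013 for labelled K6-KO tumours. The first of these calls was lost without WT replicate 1 or DKO replicate 2 or 3 (adjusted p = 0.054 to 0.12), the second without WT replicate 1 or N2-KO replicate 1 or 2 (adjusted p = 0.083 to 0.12), and the third without K6-KO replicate 1 or 3 (adjusted p = 0.064 to 0.066). Each was also lost with only the libraries of the 2 groups in the fit. Without WT replicate 1 the changes were 0.57, 0.39 and 0.61 in the same order. PPP1R15A was 2666, 1144 and 1978 in labelled DKO, 942, 1538 and 945 in labelled N2-KO, 1963, 1986 and 1799 in labelled K6-KO and 3733, 2518 and 2269 in WT tumours. It was called lower in labelled N2-KO tumours (-1.32 ± 0.25, adjusted p = 0.00092), where no library overlapped WT, and the call held in all 13 alternatives. TRIB3 was 3719, 1772 and 2947 in labelled DKO, 1658, 3099 and 1693 in labelled N2-KO, 2801, 2005 and 2179.7 in labelled K6-KO and 2899, 2976 and 2703 in WT tumours, overlapping and not called in any group. VLDLR was 85.6, 62 and 68.8 in labelled DKO, against 29, 41.3 and 49.8 in WT tumours, and its call (0.84 ± 0.23, adjusted p = 0.031) was lost without WT replicate 1 or 2 or DKO replicate 1, 2 or 3 (adjusted p = 0.052 to 0.083). The VLDLR call was also lost with only the libraries of the 2 groups in the fit.

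Among the enzymes, PCK2 was 108, 110.1 and 124 in labelled DKO, 95.6, 92.4 and 103 in labelled N2-KO, 129.8, 80.2 and 104 in labelled K6-KO and 41.8, 74 and 69.7 in WT tumours, called higher in all of the labelled knockouts. The gap was narrow against WT replicates 2 and 3. The labelled DKO call was lost without DKO replicate 3 (adjusted p = 0.067), the labelled N2-KO call without WT replicate 1 or N2-KO replicate 1 or 3 (adjusted p = 0.058 to 0.077), and the labelled K6-KO call without WT replicate 1 or K6-KO replicate 1 or 3 (adjusted p = 0.051 to 0.1). Each of these PCK2 calls was also lost with only the libraries of the 2 groups in the fit. Without WT replicate 1 the labelled N2-KO change of PCK2 was 0.42. ASNS was 74.6, 60.9 and 91.7 in labelled DKO, 60.8, 72.5 and 73 in labelled N2-KO, 55.1, 46.4 and 78.3 in labelled K6-KO and 41.8, 89.5 and 83.2 in WT tumours, overlapping throughout and not called. GPT2 was called higher in labelled DKO and N2-KO tumours (log2 change 0.52 and 0.39), the first lost without DKO replicate 3 (adjusted p = 0.077) and the second without N2-KO replicate 3 (adjusted p = 0.056). AARS1 was called higher in labelled N2-KO tumours (0.61 ± 0.19, adjusted p = 0.024), a call lost without N2-KO replicate 1, 2 or 3 (adjusted p = 0.053 to 0.079). It was also lost with only the libraries of the 2 groups in the fit. Without WT replicate 1 the change of AARS1 was 0.26 (adjusted p = 0.022). GARS1, SARS1 and XPOT were not called in any labelled knockout against WT.

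SLC7A11 was the member that set the labelled K6-KO tumours apart. It was 811, 763 and 851 in labelled DKO, 881, 920.5 and 866 in labelled N2-KO, 351, 298 and 248 in labelled K6-KO and 767, 731 and 771 in WT tumours. Every labelled K6-KO tumour was under the lowest tumour of every other group. The log2 change was -1.35 ± 0.11, adjusted p = 6.5e-07 for labelled K6-KO against WT and 1.44 ± 0.11, adjusted p = 1.6e-07 for labelled DKO against labelled K6-KO tumours, and both calls held in all 13 alternatives. Of 32 members 4 were called between labelled DKO and labelled K6-KO tumours (10.8% of all genes) and 2 between labelled DKO and labelled N2-KO tumours (6.81%). The first count was 2 without labelled K6-KO replicate 2 or labelled DKO replicate 2 or 3. The second was 7 without labelled DKO replicate 2, 1 without labelled DKO replicate 3, and 0 without labelled N2-KO replicate 1 or 3 or labelled DKO replicate 1, where limma gave 2 to 4 members an unadjusted p under 0.05. SLC3A2, its heavy chain, was 5820.1, 4059 and 4647 in labelled DKO, 3708, 4321 and 3754 in labelled N2-KO, 4676, 4016 and 4242 in labelled K6-KO and 6495, 6303 and 5707 in WT tumours, lower than WT in the labelled N2-KO (-0.65 ± 0.12, adjusted p = 0.00077) and K6-KO groups (-0.52 ± 0.12, adjusted p = 0.0077) and overlapping WT in the labelled DKO group. The interaction of the KLHL6 and NOTCH2 labels called 3 of 32 members, where 10.8% of all genes were called. They were SLC7A11 (1.21 ± 0.15, adjusted p = 0.00012), SLC3A2 (0.81 ± 0.17, adjusted p = 0.0068) and PPP1R15A (1.25 ± 0.35, adjusted p = 0.031), the last of which was lost without WT replicate 1, K6-KO replicate 1, 2 or 3, N2-KO replicate 1 or 3 or DKO replicate 1 or 3 (adjusted p = 0.055 to 0.17). Without WT replicate 1 or labelled DKO replicate 2 the interaction called 6 members.

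SLC1A4 was highest in labelled N2-KO tumours, at 7098, 6999.9 and 7364, against 4345, 4906 and 4405 in WT tumours (0.65 ± 0.10, adjusted p = 0.00016), without overlap. SLC38A2 was 4951, 4892 and 4951 in labelled DKO, 5416, 5143 and 5559 in labelled N2-KO, 3567, 3308 and 3562 in labelled K6-KO and 4333, 3675 and 3799 in WT tumours. The labelled DKO and N2-KO tumours were above the WT range and the labelled K6-KO tumours below it, the last difference not called (adjusted p = 0.17). Between labelled K6-KO and labelled N2-KO tumours 8 of 32 members were called, 3 higher and 5 lower (28.5% of all genes), of which SLC7A11, SLC1A4 and SLC38A2 held in all 13 alternatives. That count was 4 without labelled K6-KO replicate 2 or labelled N2-KO replicate 3, and 5 without labelled N2-KO replicate 1.

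Of all genes 5.5% were called higher and 3.86% lower than WT in labelled DKO, 16.2% higher and 14.5% lower in labelled N2-KO, and 8.44% higher and 9.02% lower in labelled K6-KO tumours. In labelled N2-KO tumours 10 of 16 ER chaperones were higher and 0 lower, led by the disulphide isomerase PDIA4 (0.99 ± 0.12, adjusted p = 2.3e-05). For labelled K6-KO against WT tumours the same list had 1 higher and 5 lower, and for labelled DKO tumours 1 higher and 0 lower. Of 17 further tRNA synthetases 6 were higher in labelled DKO, 7 in labelled N2-KO and 5 in labelled K6-KO tumours, and none was lower. Other ATF4-linked genes were mixed, with 4 of 14 higher and 5 lower in labelled N2-KO tumours. SQSTM1, an autophagy adaptor, was lower there (-0.81 ± 0.11, adjusted p = 9.1e-05). The stromal markers with a row, 5 of 10, summed to 273.6 to 343.5 in labelled N2-KO and to 162.9 to 167.4 in WT tumours. The macrophage markers summed to 226.5 to 237.4 in labelled N2-KO, 181.4 to 286.7 in labelled K6-KO and 137.9 to 172.9 in WT tumours, and the part of host or stromal RNA in these differences was not tested.

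In the NOTCH2 variant tumours VLDLR and DDIT4 held the largest changes against NOTCH2(WT), and the log2 change of ATF4 mRNA was at most 0.15. Against NOTCH2(WT) 7 of 32 were called for NOTCH2(Q2140*), 4 higher and 3 lower (20.5% of all 15354 genes tested), 5 for NOTCH2(R2400*), 3 higher and 2 lower (8.04%), and 6 for NOTCH2(S2156A), 6 higher and 0 lower (15.2%). The count for NOTCH2(Q2140*) was 3 without NOTCH2(WT) replicate 1 or 3, 4 without NOTCH2(Q2140*) replicate 2 and 11 without NOTCH2(Q2140*) replicate 3. That for NOTCH2(R2400*) was 1 without NOTCH2(WT) replicate 1 or 3, 2 without NOTCH2(WT) replicate 2 or NOTCH2(R2400*) replicate 2, and 3 without NOTCH2(R2400*) replicate 1. That for NOTCH2(S2156A) was 3 without any 1 of the NOTCH2(WT) replicates or NOTCH2(S2156A) replicate 2 or 3. With only the libraries of the 2 groups in the fit the counts were 3 for NOTCH2(Q2140*) and 13 for NOTCH2(S2156A). NOTCH2 RNA itself, from the cell's own gene and the construct together, was 55163, 63457 and 60236 in NOTCH2(Q2140*), 23923, 29382 and 26094 in NOTCH2(R2400*), 15505, 17569 and 16875 in NOTCH2(S2156A) and 15989, 15237 and 16347 in NOTCH2(WT) tumours. All NOTCH2(Q2140*) and NOTCH2(R2400*) tumours were above the NOTCH2(WT) range, so for these variants the level of NOTCH2 RNA and the variant cannot be told apart, while the NOTCH2(S2156A) and NOTCH2(WT) ranges overlapped.

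ATF4 was 8055, 7706 and 8677 in NOTCH2(Q2140*), 7641, 8017 and 7562 in NOTCH2(R2400*), 7102, 7351 and 7409.5 in NOTCH2(S2156A) and 7390.4, 7315 and 7326 in NOTCH2(WT) tumours. The NOTCH2(Q2140*) tumours lay just above the NOTCH2(WT) range (0.15 ± 0.05, adjusted p = 0.022), and this call was lost without NOTCH2(WT) replicate 1, 2 or 3 or NOTCH2(Q2140*) replicate 3 (adjusted p = 0.061 to 0.09). It was also lost with only the libraries of the 2 groups in the fit. DDIT3 was 407, 423 and 496 in NOTCH2(Q2140*), 433, 463 and 503 in NOTCH2(R2400*), 529, 535 and 516 in NOTCH2(S2156A) and 446, 447 and 439 in NOTCH2(WT) tumours, and was called higher for NOTCH2(S2156A) (0.24 ± 0.08, adjusted p = 0.031). That call was lost without any 1 of the 6 libraries compared (adjusted p = 0.069 to 0.11). It was also lost with no filter.

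VLDLR had the largest change of the members in these tumours. It was 72.4, 51.4 and 49.1 in NOTCH2(Q2140*), 128, 139 and 106 in NOTCH2(R2400*), 163, 150 and 162 in NOTCH2(S2156A) and 61.5, 84.7 and 57.4 in NOTCH2(WT) tumours. Every NOTCH2(S2156A) and NOTCH2(R2400*) tumour was above the NOTCH2(WT) range, which the NOTCH2(Q2140*) tumours overlapped. The log2 change against NOTCH2(WT) was 0.87 ± 0.16, adjusted p = 0.00077 for NOTCH2(R2400*) and 1.22 ± 0.16, adjusted p = 3.4e-06 for NOTCH2(S2156A), both held in all 13 alternatives, and -0.23 ± 0.16, adjusted p = 0.35 for NOTCH2(Q2140*). The NOTCH2(S2156A) tumours also lay apart from NOTCH2(WT) in the summed stromal markers (319.1 to 375.5, against 207.5 to 269.9), macrophage markers (306.1 to 387 against 251.1 to 288.1) and endothelial markers (33.7 to 38.2, against 64 to 83). For NOTCH2(R2400*) the stromal and macrophage sums were 211.7 to 295.1 and 263 to 344.5, overlapping NOTCH2(WT). The part of these cells in the changes was not tested.

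TRIB3 was 1789, 1652 and 2186 in NOTCH2(Q2140*), 1605, 1915 and 1629 in NOTCH2(R2400*), 2494, 2406 and 2426 in NOTCH2(S2156A) and 2060.3, 2061 and 2065 in NOTCH2(WT) tumours. It was above NOTCH2(WT) in every NOTCH2(S2156A) tumour (0.24 ± 0.08, adjusted p = 0.049) and below it in every NOTCH2(R2400*) tumour (-0.27 ± 0.08, adjusted p = 0.047). The direct difference of NOTCH2(S2156A) from NOTCH2(R2400*) was 0.51 ± 0.08, adjusted p = 0.00097, and it held in all 13 alternatives, unlike the pair of changes from NOTCH2(WT). The NOTCH2(S2156A) call was lost without any 1 of the libraries compared (adjusted p = 0.099 to 0.14), and with a pseudocount of 0.5. That for NOTCH2(R2400*) was lost without NOTCH2(WT) replicate 1, 2 or 3 or NOTCH2(R2400*) replicate 1 or 3 (adjusted p = 0.11 to 0.18). Both were also lost with the replicate block. CHAC1 was 179, 188 and 169 in NOTCH2(Q2140*), 219, 213 and 144 in NOTCH2(R2400*), 154, 145 and 132 in NOTCH2(S2156A) and 166, 131 and 152 in NOTCH2(WT) tumours, with no call against NOTCH2(WT). ASNS was 103, 97.8 and 75.8 in NOTCH2(Q2140*), 101, 85.1 and 78 in NOTCH2(R2400*), 85.2, 81.2 and 95 in NOTCH2(S2156A) and 69.1, 74.3 and 61.1 in NOTCH2(WT) tumours. Each variant tumour was above the NOTCH2(WT) range, with a call for NOTCH2(Q2140*) (0.42 ± 0.15, adjusted p = 0.049), lost without NOTCH2(WT) replicate 1, 2 or 3 or NOTCH2(Q2140*) replicate 1 or 2 (adjusted p = 0.052 to 0.2), and none for NOTCH2(R2400*) (adjusted p = 0.16) or NOTCH2(S2156A) (adjusted p = 0.13). The ASNS call was also lost with no filter, with the replicate block and with only the libraries of the 2 groups in the fit.

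**Figure D4:**
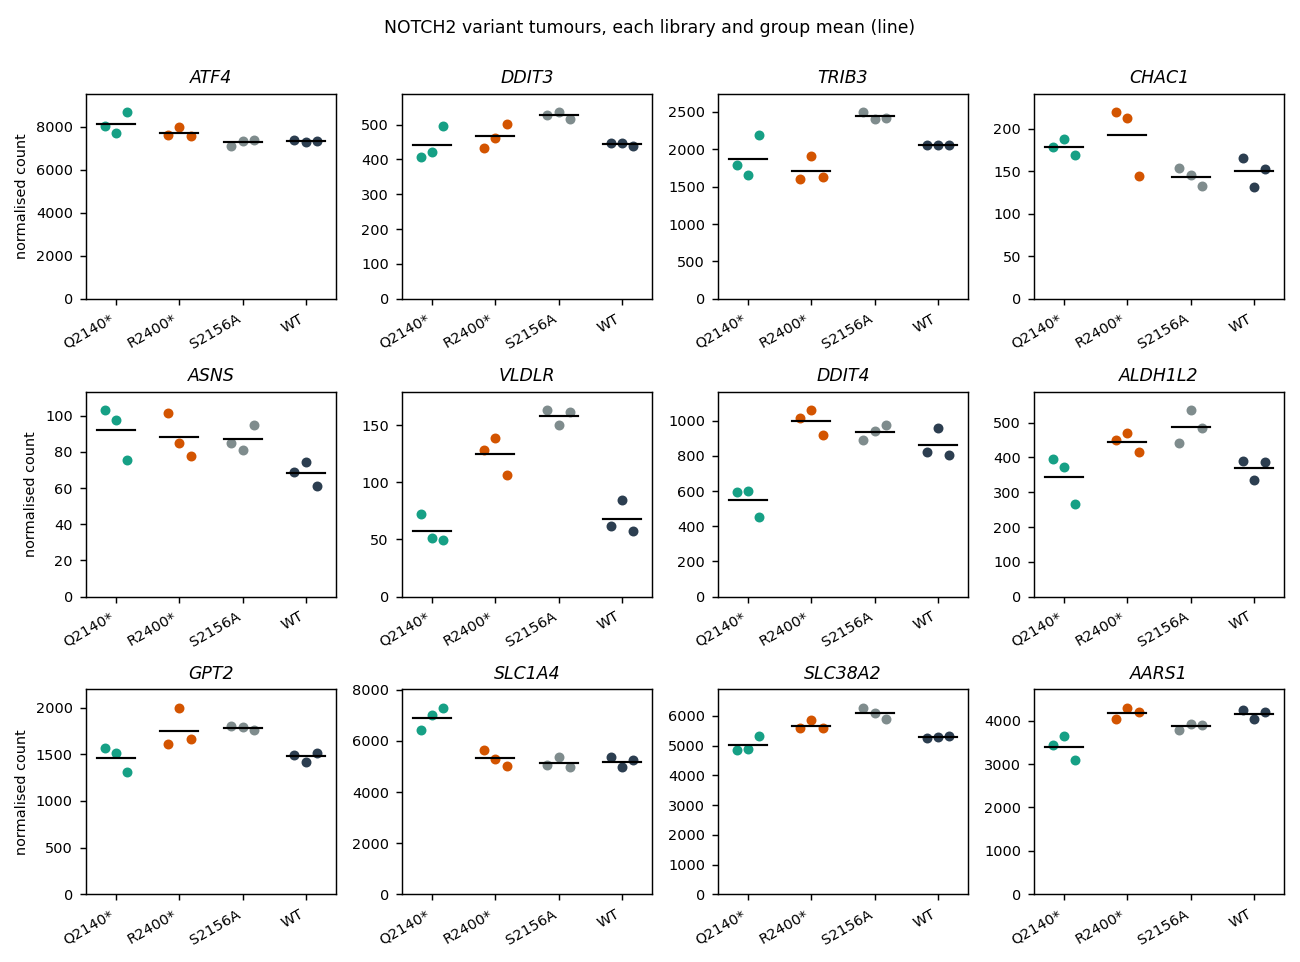
Normalised count of 12 members in NOTCH2(Q2140*), NOTCH2(R2400*), NOTCH2(S2156A) and NOTCH2(WT) tumours, each point 1 tumour and each line the group mean. VLDLR is high in the R2400* and S2156A groups, and DDIT4, SLC1A4 and AARS1 set the Q2140* group apart.

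The NOTCH2(Q2140*) tumours differed mainly in DDIT4, SLC1A4 and AARS1. DDIT4 was 596, 599 and 455 in NOTCH2(Q2140*) and 824, 956 and 807 in NOTCH2(WT) tumours (-0.65 ± 0.09, adjusted p = 3.7e-05). SLC1A4 was 6403, 6998 and 7282 in NOTCH2(Q2140*) and 5359.6, 4963 and 5248 in NOTCH2(WT) tumours (0.41 ± 0.05, adjusted p = 3.6e-06). AARS1 was 3435, 3645 and 3103 in NOTCH2(Q2140*) and 4237, 4033 and 4201 in NOTCH2(WT) tumours (-0.29 ± 0.05, adjusted p = 0.00017). The groups did not overlap for any of these members, and the calls held in all 13 alternatives. SLC7A5 was called lower (-0.15) and CEBPB higher (0.26) by smaller log2 amounts, the first lost without NOTCH2(WT) replicate 1 or 3 or NOTCH2(Q2140*) replicate 1 or 2 (adjusted p = 0.068 to 0.19) and the second without NOTCH2(WT) replicate 1, 2 or 3 or NOTCH2(Q2140*) replicate 2 or 3 (adjusted p = 0.061 to 0.21). Both were also lost with only the libraries of the 2 groups in the fit, and CEBPB with no filter and with the replicate block. The stromal markers summed to 297.3 to 672.5 in NOTCH2(Q2140*) and to 207.5 to 269.9 in NOTCH2(WT) tumours, and the macrophage markers to 302.8 to 520.9 and 251.1 to 288.1 in the same groups. Their part in these differences was not tested.

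SLC38A2 and GPT2 were higher in NOTCH2(S2156A) than in NOTCH2(WT) tumours by small amounts that held in all 13 alternatives (log2 change 0.20 and 0.27), and ALDH1L2 was called as well (0.39) but lost without NOTCH2(WT) replicate 1, 2 or 3 or NOTCH2(S2156A) replicate 2 or 3 (adjusted p = 0.051 to 0.13). PHGDH and GPT2 were called higher, and SLC7A1 lower, for NOTCH2(R2400*), by log2 changes of 0.18, 0.24 and -0.16. Each of these was lost in 3 to 5 of the 6 fits that left out 1 library (adjusted p = 0.066 to 0.2). Between variants 17 of 32 members were called for NOTCH2(S2156A) against NOTCH2(Q2140*) (30.7% of all genes), 10 for NOTCH2(Q2140*) against NOTCH2(R2400*) (18.9%) and 4 for NOTCH2(S2156A) against NOTCH2(R2400*) (4.76%). VLDLR (1.45), DDIT4 (0.78) and ALDH1L2 (0.51) were the members with the largest log2 changes for NOTCH2(S2156A) against NOTCH2(Q2140*), that of ALDH1L2 being 0.34 without NOTCH2(Q2140*) replicate 3.

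**Figure D5:**
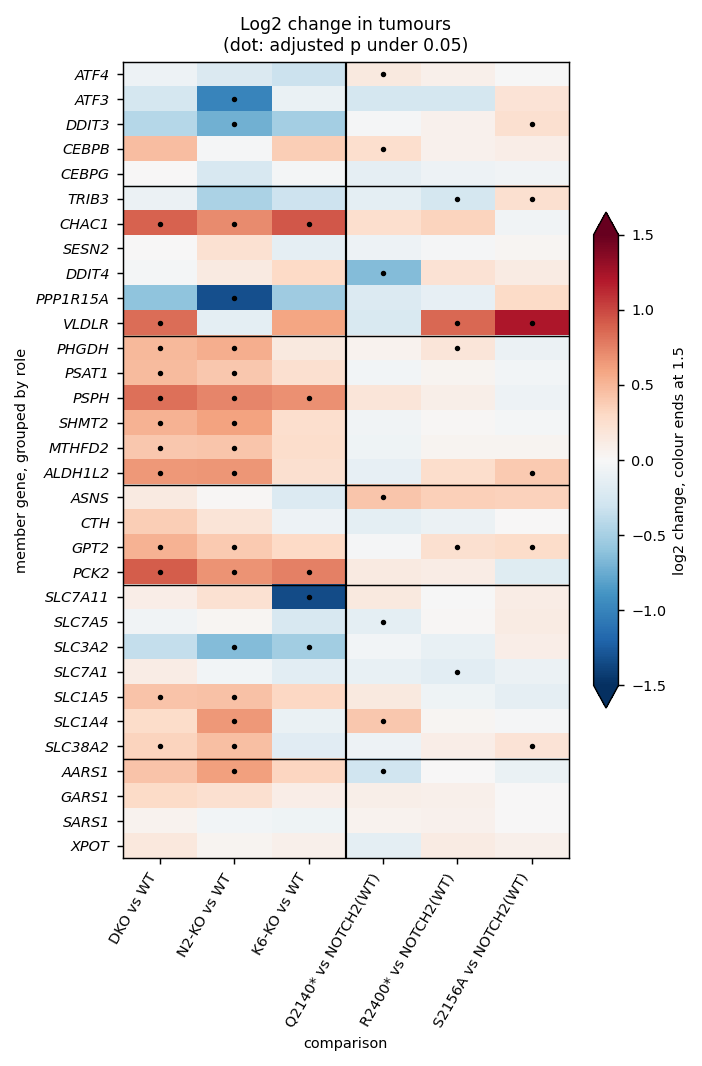
Log2 change of the 32 members in each labelled knockout against WT tumours (left) and in each NOTCH2 variant against NOTCH2(WT) tumours (right); a dot marks adjusted p under 0.05. The serine and one-carbon rows are red for labelled DKO and N2-KO and pale for the variants, and SLC7A11 is blue for labelled K6-KO.

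Of all genes 9.72% were called higher and 10.8% lower than NOTCH2(WT) for NOTCH2(Q2140*), 3.73% and 4.32% for NOTCH2(R2400*), and 7.14% and 8.06% for NOTCH2(S2156A). Among the other lists, 2 of 16 ER chaperones were higher and 4 lower for NOTCH2(Q2140*), with HSP90B1 changed by -0.54 ± 0.05, adjusted p = 6.6e-09. For NOTCH2(S2156A) 0 were higher and 5 lower. Of 14 other ATF4-linked genes 2 were higher and 1 lower for NOTCH2(Q2140*), 2 higher and 1 lower for NOTCH2(R2400*), and 5 higher and 0 lower for NOTCH2(S2156A). Of 17 further tRNA synthetases 2 were higher and 2 lower for NOTCH2(Q2140*).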

How the data were processed

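RNA-seq of U2932 cells and tumours was analysed from 48 deposited tables in 3 experiments (24, 12 and 12 libraries). The labels' protocols give poly(A) selection and a directional library kit. The submitters' processing notes name STAR, SAMtools, DESeq2 and GRCh38. The sources used here do not give versions, the counting program, the annotation or the strand setting. The deposited signal is a normalised count, the reads of a gene divided by 1 size factor per library, as the values show. In every library 100% of values were whole multiples of its smallest step, within 0.02 of a step, so whole reads and library totals were recovered. Rows whose gene name had become a date, and 1 row in each tumour experiment that named no gene, were left out: 17 rows of the knockout and 27 of the variant tumours, at most 0.238% and 0.252% of a library. The size factors were set by the authors in each experiment separately, so no test was made between experiments.

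Genes reaching 10 normalised counts in 3 or more libraries entered limma 3.58.1 in R 4.3.3, with trended and robust variances, on log2(value + 2), a scale that understates changes of low genes. All groups of an experiment shared 1 fit, giving 15, 7 and 6 comparisons over 15032, 14005 and 15354 genes. Benjamini-Hochberg adjustment covered all genes tested in a comparison, and calls were made under 0.05. The same fit was also run on simulated data with known changes, with results not reported here. For KLHL6-KO cells at 8 h against 0 h limma called 5675 genes and edgeR, on the recovered reads, 5741. Alternatives were edgeR 4.0.16 (quasi-likelihood, on recovered reads), TMM scaling, pseudocounts of 0.5 and 8, no filter, only the libraries of the 2 groups, a replicate block, and leaving out each library.

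The members and all gene lists were chosen with earlier results of these data known. Every library is given for ATF4, DDIT3, ASNS, TRIB3 and CHAC1 where their values bear on a comparison, and for further called members in order of change. The labels call the replicates biological, without saying whether each was a separate culture, animal or day. The p-values measure the spread between these samples, and how much of it is technical is not known. In the tumour tables AARS1, GARS1 and SARS1 were matched by their older symbols. Promoter letters come from RefSeq (GRCh38.p14).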

Additional observations from a re-analysis of the deposited data

Results flagged for a closer look

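For 14 results the size of a change depended on a second factor, by a test of the difference itself (limma, adjusted over all genes tested). In 11 of them, from 32 members tested, the change with time in coculture differed between KLHL6-KO and WT cells, where 12.4% of all genes were called. The adjusted p was 6.7e-05 for PPP1R15A, 0.00029 for SLC1A4, 0.0016 for GPT2, 0.0034 for AARS1, 0.0096 for DDIT3 and 0.01 for ALDH1L2. It was 0.017 for SARS1, 0.025 for MTHFD2, 0.03 for SLC7A11, 0.034 for ATF4 and 0.039 for SLC7A5. Of 30 alternatives, the call was lost in 16 for SLC7A5, 8 for ATF4, 5 for MTHFD2, 3 for SLC7A11, 2 for SARS1 and 1 for DDIT3. Averaged over 3, 8 and 12 h, the change in KLHL6-KO cells minus that in WT cells was 0.73 ± 0.10 for PPP1R15A, 0.66 ± 0.15 for DDIT3, 0.25 ± 0.06 for AARS1, 0.20 ± 0.09 for GPT2 and -0.36 ± 0.06 for SLC1A4 (log2 ± SE). PPP1R15A, DDIT3, AARS1 and GPT2 therefore fell by less in KLHL6-KO cells on average, and SLC1A4 was the one of these with a difference below 0. AARS1 and DDIT3 were lower in KLHL6-KO cells at 0 h, and their 8 h libraries overlapped between the genotypes. Over the alternatives the average was 0.298 to 0.551 for ALDH1L2, 0.202 to 0.248 for SARS1 and 0.137 to 0.221 for MTHFD2. It was -0.201 to -0.116 for ATF4, -0.178 to 0.009 for SLC7A11 and -0.048 to 0.017 for SLC7A5.

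In the knockout tumours the difference made by the KLHL6 label depended on the NOTCH2 label for SLC7A11 (adjusted p = 0.00012), SLC3A2 (0.0068) and PPP1R15A (0.031). These were 3 of 32 members, near the share of all genes called (10.8%). For SLC7A11 the difference was -0.14 between labelled DKO and labelled N2-KO tumours, and -1.35 between labelled K6-KO and WT tumours. For SLC3A2 it was 0.29 and -0.52 in the same order, and for PPP1R15A 0.71 and -0.53 (log2). The interaction call for PPP1R15A was lost in 8 of 18 alternatives. KLHL6 and NOTCH2 RNA did not follow these labels.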

How the results depend on the processing

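For the members called in the main fit of a comparison, and for ATF4, 5212 log2 changes were recomputed under an alternative. Of these 4855 kept their direction and side of the threshold, 351 lost a call, 3 gained one and 3 turned their sign. Only ATF4 could gain a call in this count. Other members not called in the main fit were left out of it, and some were called in an alternative. SHMT2 was 1 of them, for labelled K6-KO against WT tumours without WT tumour replicate 1 (limma, adjusted p = 0.0034). The test of the time course has no sign, but its mean log2 difference turned for SLC7A5 without WT 0 h replicate 2 (0.017, against -0.016) and for SLC7A11 without WT 0 h replicate 3 (0.009, against -0.11). The log2 change of ATF4 turned without WT tumour replicate 1 for labelled N2-KO (0.083, -0.39 to 0.083 over the fits leaving out 1 library, against -0.21) and labelled DKO tumours (0.23, -0.25 to 0.23, against -0.07), and without NOTCH2(S2156A) replicate 1 for that variant (0.007, -0.023 to 0.007, against -0.011). None of these was called. With only the libraries of the 2 groups in the fit, the members called were 8 for KLHL6-KO against WT cells at 3 h (4 with all groups), 3 for labelled K6-KO (5) and 2 for labelled DKO (12) against WT tumours, and 13 for labelled K6-KO against labelled N2-KO tumours (8). They were 13 for NOTCH2(S2156A) (6) and 3 for NOTCH2(Q2140*) (7) against NOTCH2(WT), and 5 for NOTCH2(Q2140*) against NOTCH2(R2400*) (10). Replicate numbers were not taken as pairs, since the labels do not say that they mark a shared culture, animal or day. The correlation of same-numbered libraries ran from -0.0905 to 0.208 in the coculture, -0.187 to 0.224 in the knockout and -0.0666 to 0.0263 in the variant tumours. Its mean was 0.047, 0.0072 and -0.014 in that order, against -0.023, -0.0039 and 0.0071 for libraries with other numbers. With the replicate block 7 members were called between the genotypes at 3 h, and no other count moved by over 1.5 times. Leaving out 1 library gave 4 to 10 members between KLHL6-KO and WT cells at 0 h, 1 to 3 at 3 h, and 7 to 11 for the difference in time course. In the tumours the ranges were 2 to 13 for labelled DKO, 11 to 16 for labelled N2-KO and 3 to 10 for labelled K6-KO against WT, and 2 to 4 for labelled DKO against K6-KO. They were 0 to 7 for labelled DKO against N2-KO by limma (2 by edgeR with all libraries), 4 to 8 for labelled K6-KO against N2-KO and 2 to 6 for the KLHL6 by NOTCH2 interaction. Against NOTCH2(WT) they were 3 to 11 for NOTCH2(Q2140*), 1 to 5 for NOTCH2(R2400*) and 3 to 4 for NOTCH2(S2156A). The cause was not tested. Each group had 3 libraries, and labelled DKO replicate 3 had only 3.70 M reads, so small differences were not detectable there and missed calls do not show equal levels.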

Other observations

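SLC7A1, the arginine and lysine carrier, was 8784 to 10398 normalised counts in the 12 NOTCH2 variant tumours, 1670.2 to 2398 in the 12 knockout tumours and 1269.7 to 2698 in the 24 coculture libraries. As CPM it was 619 to 723, 141 to 196 and 98.1 to 212 in the same order. The experiments were normalised separately and share no library, so no test was made between them.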
